A study of Mus musculus with 6 samples.

Results

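Mitf, Tfeb, Tfe3 and Tfec make up the MiT/TFE family, 4 genes of the 50599 with values in the deposited table, and were taken as its rows with these symbols. They were selected on the difference in their normalized counts between 4-OHT and vehicle, so that difference is given as a description with no test. The cells sequenced were RAW264.7, a macrophage-like line from mouse, in which a retrovirus had introduced ∆Raf-1:ER, a conditional form of the Raf-1 oncoprotein that 4-hydroxytamoxifen (4-OHT) switches on. The 3 vehicle samples received ethanol and the 3 treated samples 100 nM 4-OHT, and all were collected on day 3, at which time the submitters call the treated cells senescent. All 6 samples carried the construct, had been selected with hygromycin B (70 µg/mL for 7 days) and were kept without serum for the last 24 hours, and cells without the construct given the drug are not analysed here, so effects of the drug and of the oncoprotein cannot be told apart. The labels do not say whether the cells were a clone or whether the replicates A, B and C were separate cultures, so each p-value covers no more than the spread among these libraries, which may be technical.

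MiT/TFE proteins are basic helix-loop-helix leucine zipper transcription factors that bind DNA as dimers with themselves or each other. They recognise the E-box and its extension in the promoters of lysosomal and autophagy genes, known as the CLEAR element, and the related M-box of pigment cell genes. In fed cells the kinase complex mTORC1, recruited to lysosomes by Rag GTPases, phosphorylates TFEB, TFE3 and long forms of MITF, which are then held in the cytosol by 14-3-3 proteins. Calcineurin removes these phosphates, and ERK and GSK3 also phosphorylate family members. The amount of messenger RNA is therefore not a measure of the protein in the nucleus, and no protein was measured here.

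The recovered reads numbered 11629150 to 15943722 per library, and 11828 genes passed the filter on low counts and were tested. With limma, 7750 of these (65.5%) were called at an adjusted p under 0.05, 33.0% higher and 32.5% lower with 4-OHT. Values are normalized counts, as the authors scaled them. The deposited values summed to more in the treated libraries, so scaling all libraries to equal totals (total-count scaling) moved the median log2 change of all tested genes by -0.30, from -0.02 to -0.32. Under that scaling 19.1% of tested genes were called higher and 55.4% lower. Of 10 macrophage markers, 8 were tested, with 5 higher and 3 lower (Lyz2, Csf1r and Adgre1), against 1 and 3 with equal totals. Their median log2 change was 0.44, or 0.13 with equal totals, and the changes ranged from -0.89 to 2.21. The summed level of the markers was 108100 to 111600 normalized counts in vehicle and 77300 to 98580 with 4-OHT. This sum fell although the median was positive, so it does not describe most of the tested markers. Among these markers Marco was at 0 and Mertk had 3 vehicle and 4 treated reads.

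The family did not move as a block. Mitf and Tfeb were lower with 4-OHT, at 0.457 and 0.35 times their vehicle means, Tfe3 was slightly lower, at 0.884 times, and Tfec was higher, at 1.2 times, but not under total-count scaling. In bulk RNA, fewer cells with a transcript and less of it per cell cannot be told apart.

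Mitf, which directs pigment cell, mast cell and osteoclast development, lies on chromosome 6 (97807052 to 98021349, plus strand, GRCm38/mm10; ENSMUSG00000035158.15). Vehicle libraries A to C held 1477, 1492 and 1457 normalized counts, and 4-OHT libraries A to C held 694, 694 and 637. The groups lie far apart and each is tight, with means of 1476 ± 17.8 and 675 ± 32.9 (SD, n = 3 each). The log2 change was -1.13 ± 0.05 (standard error of the model), and 1.89% of all tested genes had a lower one. The recovered reads behind these values numbered 5046 in vehicle and 1810 with 4-OHT over the 3 libraries of each group.

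Mitf has several start sites, each giving a protein with its own first exon, and gene counts do not separate them. The RefSeq promoter table (GRCm38.p6) holds 3 Mitf windows of 250 bases before to 50 after a start. The most downstream of the 3, at chr6:97991533-97991832 on the plus strand, is shown because it is the only one of the 9 family windows with a cAMP response element, searched for after the data were seen, a type of site known to act in the melanocyte promoter of this gene. The capitals mark the element, TGACGTCA, which begins at -153 from the start site and is found on either strand in 1.79% of the 32851 promoter windows in the table:
Mitf, most downstream window: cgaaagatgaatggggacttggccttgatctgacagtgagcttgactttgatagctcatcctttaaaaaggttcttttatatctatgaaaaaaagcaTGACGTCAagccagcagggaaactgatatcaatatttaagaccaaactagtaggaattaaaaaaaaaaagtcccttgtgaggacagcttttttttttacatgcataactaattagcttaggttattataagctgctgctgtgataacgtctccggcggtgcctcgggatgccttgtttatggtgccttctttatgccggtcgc

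A match of letters does not show that a site is used. Creb1, a transcription factor that binds such elements, was lower with 4-OHT (log2 change -0.41 ± 0.07, adjusted p = 0.000476 by limma). So were 32.5% of all tested genes, and whether Creb1 or this element bears on the Mitf level was not tested.

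Tfeb, the member best known as a master regulator of lysosomal genes, lies on chromosome 17 (47737030 to 47792419, plus strand; ENSMUSG00000023990.18). Vehicle libraries A to C held 258, 250.2 and 223.5 normalized counts, and 4-OHT libraries A to C held 84.95, 85.2 and 86.1. The treated libraries are almost identical and all lie below the lowest vehicle library. They hold 75, 78 and 76 reads, closer together than counts of this size usually fall. Their SD, here and per kb, thus understates the uncertainty. The means were 244 ± 18.2 and 85.4 ± 0.627 (SD, n = 3 each), a log2 change of -1.50 ± 0.10, and 0.457% of tested genes had a lower one. It rests on the fewest reads of the family, 828 in vehicle and 229 with 4-OHT.

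Tfe3, which shares many lysosomal targets with Tfeb and is expressed in most tissues, lies on chromosome X (7762560 to 7775202, plus strand; ENSMUSG00000000134.17). Vehicle libraries A to C held 1233, 1241 and 1148 normalized counts, and 4-OHT libraries A to C held 1112, 1052 and 1039. The groups do not overlap, but the lowest vehicle value and the highest treated value are close. The means were 1207 ± 51.4 and 1068 ± 39.02 (SD, n = 3 each), a log2 change of -0.18 ± 0.05, and 38.1% of tested genes had a lower one. Relative to the library total the difference was wider, at 105 ± 4.55 against 75.1 ± 5.01 CPM (reads scaled to equal library totals) and a log2 change of -0.48.

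Tfec, whose expression in mice is largely restricted to macrophages, lies on chromosome 6 (16833373 to 16898441, minus strand; ENSMUSG00000029553.10). Vehicle libraries A to C held 375, 389 and 467 normalized counts, and 4-OHT libraries A to C held 494, 506 and 477. Vehicle replicate C stands above the other vehicle libraries and almost reaches the treated ones, so the ratio of same-letter libraries was 1.32, 1.30 and 1.02 for A, B and C. The means were 410 ± 49.6 and 492 ± 14.3 (SD, n = 3 each), a log2 change of 0.27 ± 0.08, and 31.0% of tested genes had a higher one. In CPM the groups overlap, at 33.1, 33.2 and 40.6 in vehicle and 35.9, 35.04 and 32.9 with 4-OHT, and the log2 change was -0.04 under total-count scaling. The direction for Tfec thus depends on the scaling.

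**Figure D1:**
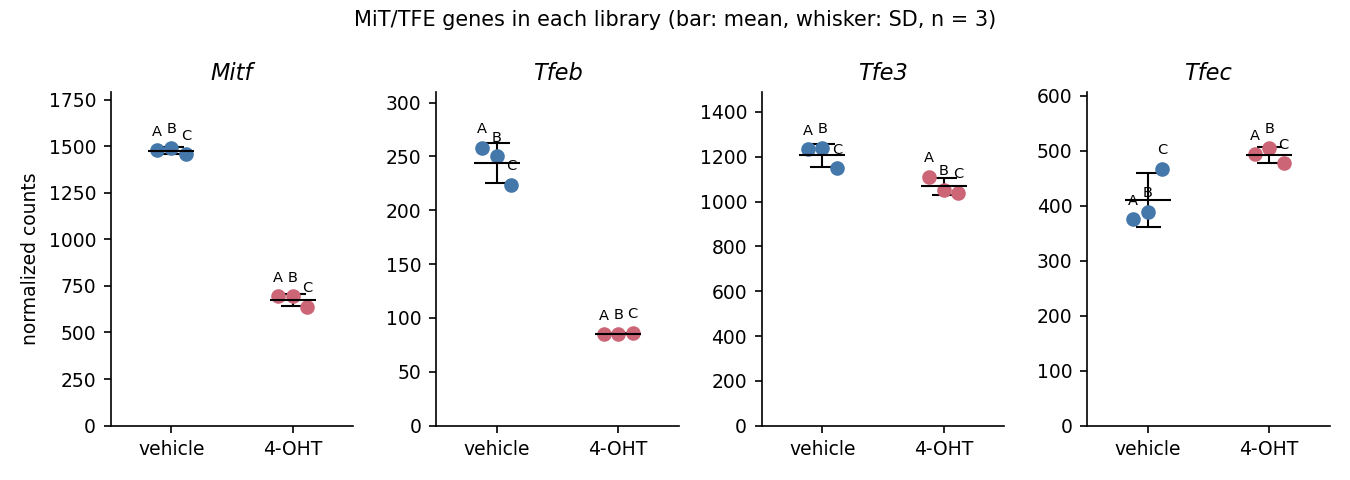
Normalized counts (vertical axis, from 0) of Mitf, Tfeb, Tfe3 and Tfec in each library, lettered by replicate, with the mean and SD of the 3 libraries per group. Mitf and Tfeb are well separated, at 1476 against 675 and 244 against 85.4, while Tfe3 and Tfec differ by little and vehicle replicate C of Tfec lies near the treated libraries.

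All 4 members had groups that did not overlap in normalized counts, as did 70.7% of all tested genes (35.7% lower and 35.0% higher with 4-OHT), and nothing is read from this count, since the members were selected on it. The log2 changes in the authors' deposited table were -1.13 for Mitf, -1.51 for Tfeb, -0.18 for Tfe3 and 0.26 for Tfec. The only annotated gene that overlaps a member is Gm15531, a processed pseudogene in an intron of Mitf, which had 0 reads in every library.

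The genes whose profiles over the 6 libraries lay closest to each member were found by the root mean square distance between centred log2 values. These distances mostly reflect the difference between the groups, which all libraries share. Nup210, a nuclear pore protein, was nearest to Mitf, at a distance of 0.03. Cldn11, a claudin of tight junctions, was nearest to Tfeb, at 0.05, followed by Cd72, a lectin of B cells and macrophages, at 0.06. Fam168b was nearest to Tfe3, at 0.01, and Zfp868 and the kinase gene Cdk13 to Tfec, at 0.04 and 0.05.

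Levels of different members can be compared only per length. Divided by the union of all annotated exons (6.20 kb for Mitf, 5.67 kb for Tfeb, 9.26 kb for Tfe3 and 5.59 kb for Tfec), the vehicle level per kb was highest for Mitf, at 238 ± 2.88, followed by Tfe3 at 130 ± 5.55, Tfec at 73.3 ± 8.87 and Tfeb at 43.04 ± 3.21 normalized counts per kb. With 4-OHT the levels were 109 ± 5.31 for Mitf, 115 ± 4.21 for Tfe3, 88.0 ± 2.56 for Tfec and 15.1 ± 0.111 for Tfeb normalized counts per kb, and Tfe3 was above Mitf in each treated library, by a gap close to the spread between libraries. This union counts retained introns and rare exons. Divided instead by the longest coding transcript (4.88, 2.34, 3.39 and 1.79 kb in the same order), Tfe3 was highest in vehicle, at 356 ± 15.2, ahead of Mitf at 302 ± 3.66, Tfec at 230 ± 27.8 and Tfeb at 104 ± 7.78 normalized counts per kb. With this length the treated levels were 315 ± 11.5 for Tfe3, 275.5 ± 8.03 for Tfec, 138 ± 6.74 for Mitf and 36.5 ± 0.268 for Tfeb normalized counts per kb, which puts Mitf below Tfec. The order of Mitf and Tfe3 in vehicle, and of Mitf and Tfec with 4-OHT, is thus not settled by gene counts, whereas Tfeb was lowest with either length.

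The summed level of the family lay below the vehicle range in every treated library with either length. Per kb of exon union it was 482 to 489 in vehicle and 315.5 to 335 with 4-OHT, and per kb of coding transcript 987 to 996 and 741 to 783 normalized counts. Mitf made up 49.1% ± 0.290 of that sum in vehicle and 33.3% ± 0.632 with 4-OHT per kb of exon union, or 30.5% ± 0.381 and 18.1% ± 0.409 per kb of coding transcript. The share of Tfec went from 15.1% ± 1.91 to 26.9% ± 0.514, or from 23.1% ± 2.75 to 36.0% ± 0.688. Tfe3 went from 26.9% ± 1.01 to 35.2% ± 0.799, or from 35.9% ± 1.58 to 41.2% ± 0.871. Tfec and Tfe3 thus each took a larger share in the treated libraries by both lengths, and the scaling of libraries cancels in a share. A share also rises when other members fall, as Mitf and Tfeb did, and the members were selected on these differences. Nothing further is therefore read from the shares. The level of Tfe3 itself was lower with 4-OHT, and the direction for Tfec depended on the scaling.

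**Figure D2:**
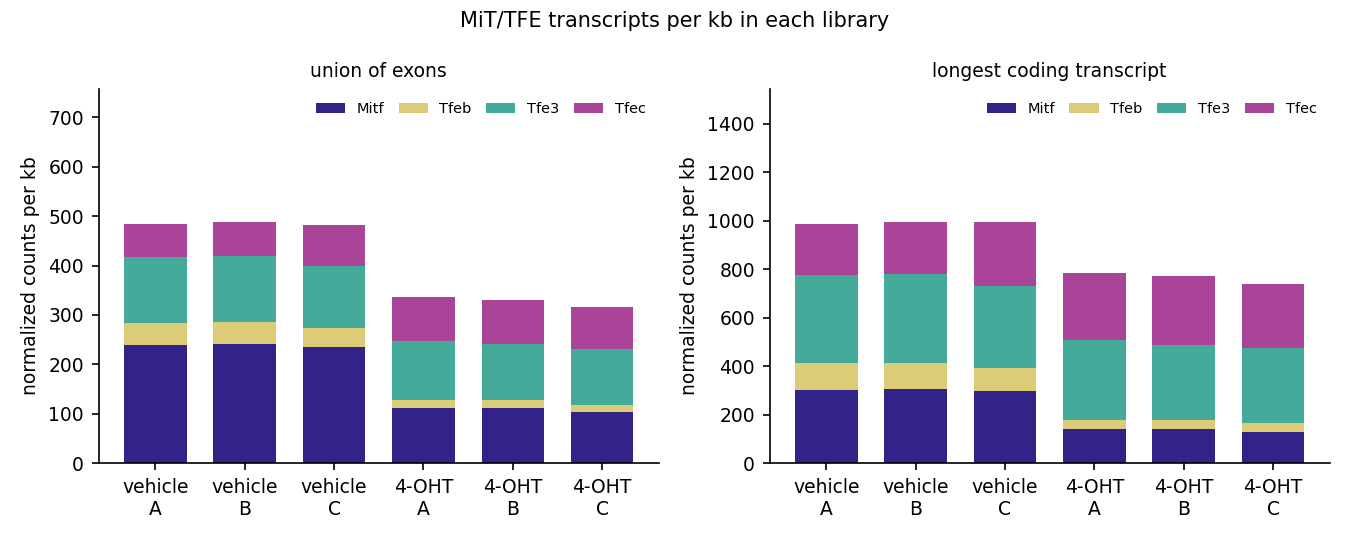
Stacked normalized counts per kb (vertical axis, from 0) of the 4 members in each library, divided by the union of exons (left) or the longest coding transcript (right). The sums are lower in the 3 treated libraries, 315.5 to 335 against 482 to 489 on the left, and the Mitf and Tfeb segments are shorter there, while the Tfe3 and Tfec segments differ less.

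Lysosomal and autophagy genes, among which the family has known targets, were described with 4 lists, 121 genes in all, of which 120 were tested. Whether each of these genes is a target in these cells was not tested. With the deposited scaling 69 (57.5%) were higher, 17 (14.2%) lower and 34 not called, with a median log2 change of 0.28. With libraries scaled to equal totals 42 were higher and 42 lower, with a median of -0.025. Over all tested genes the same figures were 33.0% higher and 32.5% lower under the deposited scaling, and 19.1% and 55.4% under total counts. The list therefore sat above the tested genes as a whole under both scalings, but lysosomal genes were not mostly higher under total counts. Without vehicle replicate A, 10 of these genes were lower.

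Of the 47 hydrolases and their activators, 28 were higher, 9 lower and 10 not called, against 18 and 16 with equal totals, and the median was 0.29 or -0.01. The protease cathepsin D (Ctsd) rose 2.51-fold, with 20270 ± 369 normalized counts in vehicle and 50790 ± 8116 with 4-OHT (SD, n = 3 each; adjusted p = 1.11e-06 by limma). Its lowest treated library was 4-OHT replicate A, at 41570 against 56820 in B and 53990 in C. The cathepsin gene Ctsl also rose 2.51-fold, and Ctsh rose 21.01-fold from few reads, 14 in vehicle, 11 of them in replicate C, to 205 with 4-OHT (51.8-fold without vehicle replicate C). Cathepsin F (Ctsf) fell, with 498 ± 9.59 normalized counts in vehicle and 178 ± 12.2 with 4-OHT and a log2 change of -1.48 ± 0.08 (adjusted p = 2.23e-08). Ids, which degrades heparan and dermatan sulphate, the acid lipase Lipa and the ganglioside activator Gm2a changed by -0.66, -0.58 and -0.33.

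Of 28 lysosomal membrane proteins, 14 were higher, 3 lower and 11 not called, against 12 and 10 with equal totals, and the median was 0.25 or -0.06. The chloride transporter Clcn7 rose 2.70-fold, with 2389 ± 34.2 normalized counts in vehicle and 6452 ± 889 with 4-OHT (adjusted p = 6.70e-08). Lmbrd1, involved in vitamin B12 export, Npc1, the cholesterol exporter, and Slc36a1, an amino acid transporter, rose 2.42-fold, 2.34-fold and 2.33-fold. Mcoln1, the calcium channel that activates calcineurin near lysosomes and was chosen after its value was seen, rose 1.54-fold. The channel gene Tpcn1 fell to 0.453 times its vehicle level, and Tpcn2 and Tmem55a changed by -0.21 and -0.19, calls that were lost without vehicle replicate A (ratios of 0.881 and 0.899). Each was also lost with DESeq2 and without other libraries, Tpcn2 without 4-OHT replicate B and Tmem55a without vehicle replicate B or 4-OHT replicate C. Gpnmb, a MITF target and among the most abundant transcripts of this list, was not called, at 59250 ± 8000 and 70380 ± 12610 normalized counts (adjusted p = 0.167), but was called higher without 4-OHT replicate A (ratio 1.31), with DESeq2 and with the replicate block, and was chosen after its value was seen.

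Of 18 subunits of the V-ATPase, the pump that acidifies lysosomes, 11 were higher, 3 lower and 4 not called, against 7 and 7 with equal totals, and the median was 0.32 or 0.01. Atp6v0c, Atp6ap1, Atp6v0a1 and Tcirg1 rose 2.0-fold, 1.98-fold, 1.80-fold and 1.79-fold, Atp6v0c with some doubt since it has close pseudogene copies. Atp6v0d2 fell to 0.469 times its vehicle level and Atp6v1b2 to 0.710 times, both by limma at an adjusted p of 5.91e-05 or less. Atp6v1g1, at -0.12, was lost as a call without vehicle replicate A or B or 4-OHT replicate B or C, and with edgeR, DESeq2 or no filter.

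Of 28 autophagy genes, 27 entered the test, with 16 higher, 2 lower and 9 not called, against 5 and 9 with equal totals, and the median was 0.20 or -0.11. Sqstm1, the cargo receptor p62, rose 2.38-fold and Map1lc3b, which coats autophagosomes, 2.26-fold, from 533 ± 29.0 to 1203 ± 33.4 normalized counts (adjusted p = 1.58e-08). Wipi2 and Gabarap rose 1.87-fold and 1.46-fold. Wipi1, a gene that TFEB is known to induce, had few reads, 133 in vehicle and 54 with 4-OHT, and was lower (log2 change -0.95 ± 0.34, adjusted p = 0.0269), a call lost without vehicle replicate C or 4-OHT replicate A or C. Calcoco1, at -0.26, was lost as a call without vehicle replicate A or 4-OHT replicate B and with DESeq2.

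**Figure D3:**
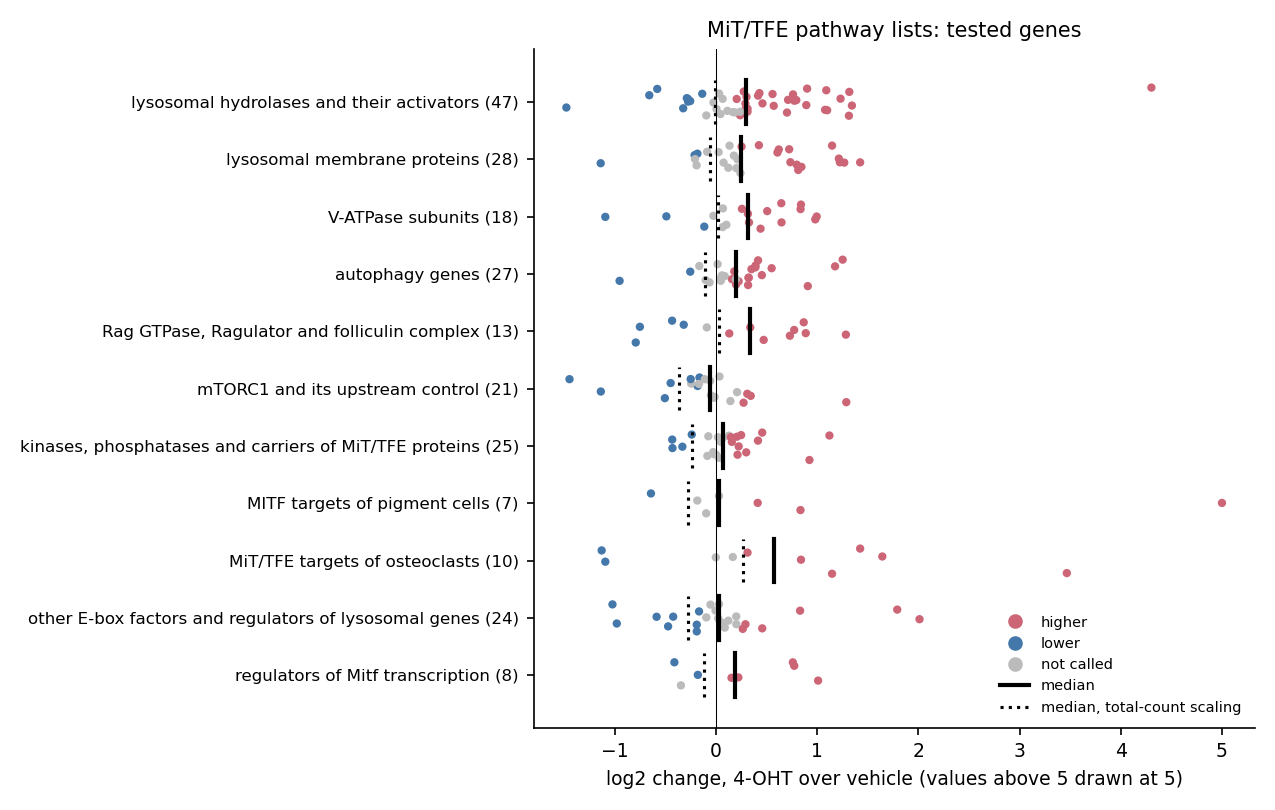
Log2 change with 4-OHT (horizontal axis) of each tested gene in 11 lists around the MiT/TFE family, coloured by its call, with the number tested in brackets, Met drawn at the edge of the axis, and the median of each list under the deposited scaling (solid bar) and total-count scaling (dotted bar). The 4 lysosomal and autophagy lists have medians from 0.20 to 0.32 under the deposited scaling and from -0.11 to 0.01 under total counts.

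The motifs that the family binds were searched on both strands in the RefSeq promoter windows of GRCm38.p6. The E-box CACGTG was found in 7.15% of 32851 windows, the CLEAR core TCACGTGA, which contains an E-box, in 0.974%, and the M-box TCATGTGA in 0.986%. None of these motifs was found in the 9 windows of the family members themselves, which says nothing of sites elsewhere. The promoters below belong to lysosomal genes that were called higher and hold the CLEAR core, the first 2 of them with a core flanked by the outer letters of the full CLEAR palindrome, and capitals mark the E-boxes and CLEAR cores:
Cln3, a lysosomal membrane protein (chr7:126583187-126583486, minus strand): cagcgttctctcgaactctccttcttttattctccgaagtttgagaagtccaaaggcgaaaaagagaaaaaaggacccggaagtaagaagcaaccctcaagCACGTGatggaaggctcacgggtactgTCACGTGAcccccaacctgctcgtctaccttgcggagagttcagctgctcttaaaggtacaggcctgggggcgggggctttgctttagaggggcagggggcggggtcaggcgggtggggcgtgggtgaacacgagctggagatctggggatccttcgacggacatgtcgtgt
Vps33a, of the complex that tethers vesicles to lysosomes (chr5:123572966-123573265, minus strand): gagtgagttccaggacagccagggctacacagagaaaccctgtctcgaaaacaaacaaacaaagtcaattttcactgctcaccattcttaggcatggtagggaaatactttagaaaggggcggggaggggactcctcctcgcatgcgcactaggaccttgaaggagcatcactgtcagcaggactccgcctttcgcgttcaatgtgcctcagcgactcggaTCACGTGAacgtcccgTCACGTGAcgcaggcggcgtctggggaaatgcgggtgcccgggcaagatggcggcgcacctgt
Clcn7, the chloride transporter (chr17:25133141-25133440, plus strand): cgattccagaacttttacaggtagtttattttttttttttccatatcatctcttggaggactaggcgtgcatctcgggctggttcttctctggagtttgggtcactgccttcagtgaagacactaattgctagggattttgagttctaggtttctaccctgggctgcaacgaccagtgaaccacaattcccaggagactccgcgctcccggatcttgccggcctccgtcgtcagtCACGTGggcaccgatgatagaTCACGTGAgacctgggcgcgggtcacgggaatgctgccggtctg
Ctsd, cathepsin D (chr7:142387778-142388077, minus strand): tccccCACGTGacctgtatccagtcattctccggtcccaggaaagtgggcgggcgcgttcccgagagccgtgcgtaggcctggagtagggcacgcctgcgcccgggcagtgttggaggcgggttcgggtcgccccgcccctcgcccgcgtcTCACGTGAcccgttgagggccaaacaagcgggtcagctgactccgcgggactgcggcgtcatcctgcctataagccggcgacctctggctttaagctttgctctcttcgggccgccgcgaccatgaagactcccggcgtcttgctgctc

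The E-boxes begin at -15 and 8 from the start site in Clcn7, at -149 and -121 in Cln3, at -28 and -12 in Vps33a and at -245 and -98 in Ctsd. Cln3, Clcn7 and Ctsd rose by 0.80, 1.42 and 1.31 on the log2 scale and were called under both scalings, whereas Vps33a, at 0.18, was not called under total-count scaling.

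A window was present for 8787 of the tested genes, and 200 of them (2.28%) had the CLEAR core in at least 1 window. Of these 200 genes, 47.0% were called higher and 20.5% lower, with a median log2 change of 0.17, against 32.9% and 34.1% and a median of -0.03 in the 8587 genes without it. Under total-count scaling 19.0% of the genes with the core were higher and 43.0% lower, against 18.6% and 57.8% without it. The M-box was rarer, in 91 genes (1.04%), of which 59.3% were higher and 16.5% lower, with a median of 0.39, or 41.8% and 35.2% under total-count scaling. The shares were close with and without the E-box, at 34.6% higher and 32.9% lower in the 1072 genes that hold it and 33.0% and 34.0% in the others. Of the lysosomal and autophagy genes with a window, 12 of 95 (12.6%) had the CLEAR core, and 9 of these were higher and 3 not called, while of the 83 without it 46 were higher and 12 lower. The median log2 changes were 0.53 with the core and 0.24 without it, or 0.22 and -0.07 under total-count scaling. The 4 lists differed in this, since the medians with and without the core were 0.70 and 0.19 for hydrolases and 1.01 and 0.24 for membrane proteins, but 0.10 and 0.65 for V-ATPase subunits and 0.19 and 0.22 for autophagy genes, with 2 to 4 genes holding the core in each list. The M-box was in 7 of the 95 genes, of which 57.1% were higher and 14.3% lower, against 58.0% and 12.5% of the 88 without it. Their medians were 0.57 and 0.25, and under total-count scaling 57.1% and 35.2% were higher. These shares are descriptions, and whether a motif plays a part in the differences was not tested.

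**Figure D4:**
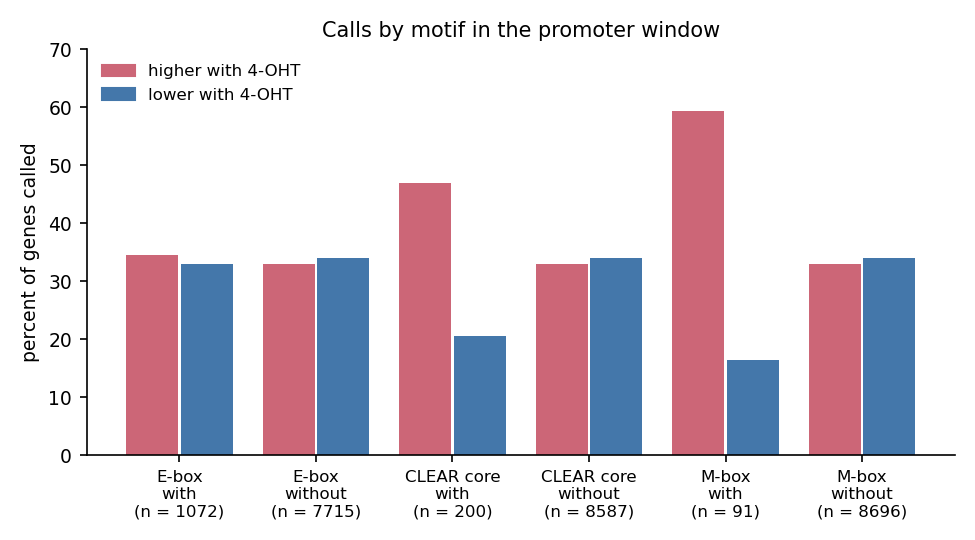
Percent of tested genes called higher or lower with 4-OHT (vertical axis, from 0) among genes with and without each motif in a promoter window, under the deposited scaling. Genes with the CLEAR core were called higher in 47.0% and lower in 20.5% of cases and those with the M-box in 59.3% and 16.5%, while genes with and without the E-box hardly differ.

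Genes that control the location of MiT/TFE proteins were described next. The counts in this and the following lists stand beside 33.0% higher and 32.5% lower over all tested genes. Under total counts those shares were 19.1% and 55.4%. Of 13 genes of the Rag GTPases, their anchor Ragulator, the folliculin complex and the amino acid sensor Slc38a9, 8 were higher, 4 lower and 1 not called, against 5 and 6 with equal totals, and the median was 0.34 or 0.03. Flcn, the folliculin gene, whose product activates RagC and RagD and so keeps TFEB and TFE3 phosphorylated, held 668, 623 and 645 normalized counts in vehicle libraries A to C and 1198, 1191 and 1140 with 4-OHT. The treated libraries were all well above the vehicle ones, a log2 change of 0.87 ± 0.05 (adjusted p = 9.12e-08 by limma). Its partners Fnip2 and Fnip1 rose 1.71-fold and 1.66-fold. Rragd, a direct target of the family in other cells, rose 2.41-fold from few reads, 41 in vehicle and 75 with 4-OHT, and Rragc rose 1.26-fold, which was not called under total-count scaling. Slc38a9 rose 1.39-fold, a call also lost under total counts.

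Within Ragulator the subunits moved in different directions. Lamtor3 rose by 0.89 on the log2 scale, whereas Lamtor2, Lamtor4 and Lamtor1 fell by 0.75, 0.44 and 0.32, and Lamtor5 was not called, at -0.09, but was lower under total counts. Rragb fell by 0.79. Rraga, at 0.13, was higher under the deposited scaling and lower, at -0.18, under total counts, and was lost as a call without vehicle replicate A, B or C or 4-OHT replicate C, and with DESeq2 or no filter. Rraga and Rragb are close relatives, so reads may have been split between them.

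**Figure D5:**
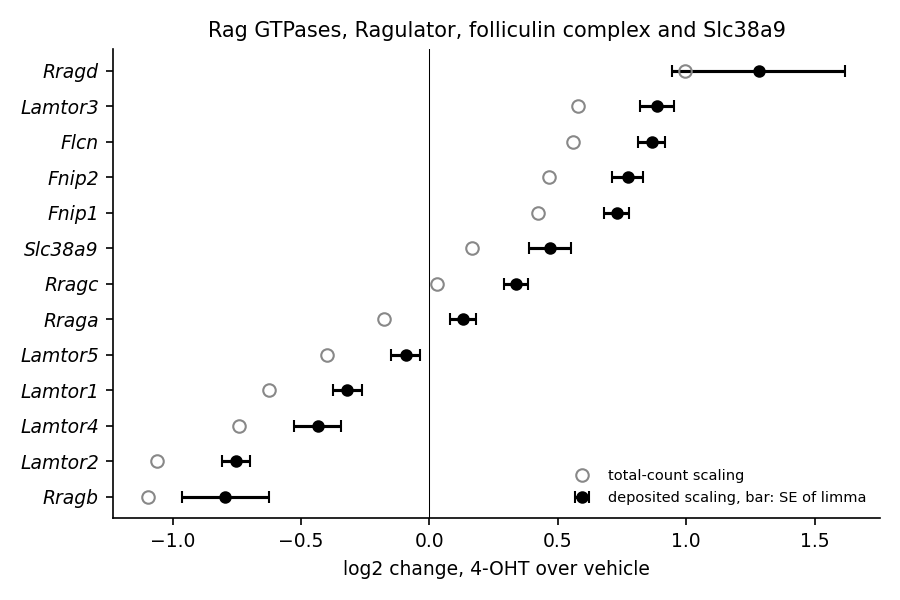
Log2 change with 4-OHT (horizontal axis) of the 13 genes under the deposited scaling (filled, with the standard error of limma) and under total-count scaling (open). Rragd, Lamtor3, Flcn, Fnip2 and Fnip1 lie above 0.70 under the deposited scaling and above 0 under both, while Lamtor1, Lamtor4, Lamtor2 and Rragb lie below 0 under both.

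Of 22 genes of mTORC1 and its upstream control, 21 entered the test, with 4 higher, 7 lower and 10 not called, against 1 and 13 with equal totals, and the median was -0.06 or -0.36. The share lower, 33.3%, was close to the 32.5% of all tested genes, while the share higher, 19.0%, was below their 33.0%. Rptor, encoding the raptor subunit that binds substrates and Rag GTPases, rose from 1211 ± 34.1 to 2956 ± 61.9 normalized counts, 2.44-fold (adjusted p = 1.50e-09). Mtor itself, the kinase, changed by -0.18 (adjusted p = 0.0105), a call lost without vehicle replicate B (ratio 0.892) and with DESeq2 on all libraries. Deptor, an inhibitor of mTOR, and Sesn1, a leucine-responsive inhibitor of the pathway, fell to 0.364 and 0.452 times their vehicle levels, and Mios and Seh1l, of the GATOR2 complex, changed by -0.51 and -0.45. Tsc1, Wdr59 and Sesn2 rose by 0.34, 0.31 and 0.27, calls lost under total-count scaling.

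Of 26 kinases, phosphatases and carriers that act on MiT/TFE proteins, 25 entered the test, with 11 higher, 4 lower and 10 not called, against 3 and 15 with equal totals, and the median was 0.07 or -0.24. The protein kinase C gene Prkca rose 2.21-fold, Map4k3, a kinase reported to phosphorylate TFEB, 1.90-fold, and the 14-3-3 gene Ywhah 1.37-fold. Mapk3, encoding ERK1, rose by 0.41 and was not called under total-count scaling. Ppp3cb, a catalytic subunit of calcineurin, fell to 0.740 times its vehicle level. Another catalytic subunit, Ppp3ca, and the regulatory Ppp3r1 were not called, at 0.04 and -0.03, but were lower under total counts. The catalytic subunit Ppp3cc was also not called under the deposited scaling, but was called under total counts. Stub1, a ubiquitin ligase for phosphorylated TFEB, Cdk4 and the nuclear exporter Xpo1 changed by -0.43, -0.33 and -0.24.

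Of 26 other E-box factors and regulators of lysosomal genes, 24 entered the test, with 6 higher, 8 lower and 10 not called, against 3 and 16 with equal totals, and the median was 0.02 or -0.28. The share lower, 33.3%, was again close to the 32.5% of all tested genes. The MYC antagonists Mxi1 and Mxd1, which pair with MAX on E-boxes, rose 4.04-fold and 3.49-fold, whereas their relative Mxd4 fell to 0.506 times and Myc, known to repress lysosomal genes, to 0.670 times the vehicle level. Bhlhe40, another E-box factor, rose 1.78-fold and Mlx 1.37-fold, the latter not called under total counts. Pparg and Srebf1 fell to 0.493 and 0.719 times their vehicle levels, Pparg with 128 vehicle and 50 treated reads. Zkscan3, described as a repressor of autophagy genes, was not called, at 0.02, but lower under total counts, and was chosen after its value was seen.

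Of 12 regulators of Mitf transcription, 8 entered the test, with 5 higher, 2 lower and 1 not called, against 2 and 4 with equal totals, and the median was 0.19 or -0.12. Ctnnb1 (beta-catenin) and Irf4 rose by 0.76 and 0.77, and Zeb2 and Atf4 by 0.22 and 0.15. Zeb2 was not called, and Atf4 was lower, at -0.15, under total counts, and Atf4 lost its call without vehicle replicate A or C. Spi1, which encodes the myeloid factor PU.1, changed by -0.18, a call lost without vehicle replicate A or B or 4-OHT replicate B or C. Tcf7l2 was not called, but was lower under total counts. Pax3 had 27 vehicle and 47 treated reads, and its call as higher was lost without vehicle replicate C or 4-OHT replicate B and under total counts. The melanocyte regulators Sox10, Otx2 and Pou3f2 and the Wnt effector Lef1 were not tested, with 0 to 5 reads per group.

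Targets of MITF in pigment cells were largely silent. Of 17 such genes 7 were tested, and 6 were at 0 in every library, among them Tyrp1, Dct and Mlana, while Tyr had 1 read in all. Of the tested genes 3 were higher, 1 lower and 3 not called, against 2 and 4 with equal totals, and the median was 0.03 or -0.28. Met, the receptor of hepatocyte growth factor, held 1, 3 and 1 reads in vehicle libraries A to C and 675, 899 and 761 with 4-OHT, a ratio of normalized counts of 560 (adjusted p = 6.26e-10 by limma), or 1026 without vehicle replicate B. Slc24a5, a cation exchanger of melanosomes, rose 1.80-fold and Bcl2 1.33-fold, the latter not called under total counts. Rab27a, which moves melanosomes and secretory lysosomes, fell to 0.644 times its vehicle level, and Trpm1, the host gene of a microRNA and a MITF target, was not called, at 125 ± 9.51 and 111 ± 21.95 normalized counts, but lower under total counts, and was chosen after its value was seen.

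Of 11 osteoclast targets, 10 entered the test, with 6 higher, 2 lower and 2 not called, against 5 and 2 with equal totals, and the median was 0.57 or 0.27. The fusion genes Dcstamp and Ocstamp rose 11.1-fold and 3.17-fold, while Ostm1, the partner of Clcn7, rose 2.23-fold and Ctsk, a classic target of MITF and TFE3, 1.24-fold, the last not called under total counts. Nfatc1, which works with MITF in osteoclasts, fell to 0.457 times its vehicle level. Acp5 and Oscar, also known targets, were not called, at 0.17 and 0.00, though Acp5 was called higher without vehicle replicate A (ratio 1.22). Calcr, which marks mature osteoclasts, had 5 vehicle and 4 treated reads.

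Markers of other cell types were low, apart from those of osteoclasts. The summed level of 7 osteoclast markers was 6845 to 7675 normalized counts in vehicle and 42250 to 54360 with 4-OHT, with 6 tested and 4 of them higher, and none of the 7 at 0. Log2 changes of the tested markers ranged from -0.0033 to 3.51, with Dcstamp at 3.47 and Acp5, not called, at 0.17. The sum therefore does not describe every marker. Ctsk and Acp5, which the list shares with the lysosomal lists, had means of 2483 and 546 normalized counts in vehicle and 3072 and 610 with 4-OHT. These shared genes thus make up a small part of the difference in the sum. The part of osteoclast-type expression in the lysosomal differences was not tested. The sums over 7 melanocyte markers were 0.989 to 2.88 in vehicle and 2.18 to 5.67 with 4-OHT, with 3 at 0 in all libraries, and over 7 mast cell markers 0.00 to 0.721 and 0.00 to 1.13, with 5 at 0. Fibroblast markers summed to 2.16 to 6.92 and 2.27 to 8.74, and lymphocyte markers to 1.95 to 6.49 and 0.00 to 3.40, with 2 of 7 at 0 in each list. The 7 epithelial and endothelial markers summed to 1.95 to 7.21 in vehicle and 62.3 to 88.5 with 4-OHT, through the endothelial genes Kdr and Cdh5, the 2 that were tested, and Pecam1, while Krt8 and Krt18 were at 0.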

How the data were processed

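RNA of 3 vehicle and 3 4-OHT samples of RAW264.7 cells was sequenced. Per the submitters' processing notes, bcl2fastq 2.20, Trimmomatic 0.35, STAR 2.5.1b, RSEM and DESeq2 1.18.1 were used with the builds GRCm38 and mm10. What each tool did, which annotation was counted, how strand was handled and what was filtered are not given in the sources used here. The signal that the authors deposited is a count scaled by a factor specific to the library, since in each column 100% of positive values are whole multiples (within 1e-06) of the smallest. Division by it recovered reads, with less certainty in vehicle replicate B, whose factor is close to 1. The log2 fold changes in the deposited table are the authors', per the file headers, and the deposited adjusted p-value column was not used in any result.

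Since the values are not raw counts, limma 3.58.1 (R 4.3.3) with a mean-variance trend was fitted to log2(value + 1) over the 11828 genes that filterByExpr of edgeR 4.0.16 kept at a minimum count of 10 recovered reads, with group as the only term. Tests were two-sided, with Benjamini-Hochberg adjustment over all genes at 0.05. A log2 change is on this scale and understates changes of low genes, while folds are ratios of mean normalized counts. The pipeline was tested on simulated data. Alternatives were total-count scaling, pseudocounts of 0.5 and 5, no filter, edgeR, DESeq2 1.42.0, a replicate block and each library left out.

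The members and lists were chosen with earlier results of these data known. Named genes are up to 4 called genes with the largest rise and up to 4 with the largest fall in each list, at a mean of 10 or more normalized counts, every gene of lists of 13 or fewer, and regulators described by their action. Some genes that this rule covers are not reported here. Genes most like a member are up to 3 named genes with the smallest distance. Exon lengths come from GENCODE M21, in which all 4 members have the coordinates of the table. Of the list genes, 3 were found under an older symbol. Promoters are from RefSeq, and all 4 members matched.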

Additional observations from a re-analysis of the deposited data

How the results depend on the processing

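Scaling of the libraries was the choice that moved the results. Under total-count scaling the tested genes called higher went from 3902 to 2259 and those called lower from 3848 to 6549, and in the 4 lysosomal and autophagy lists 42 were higher, against 69, and 42 lower, against 17. The log2 changes of Mitf, Tfeb and Tfe3 moved to -1.43, -1.80 and -0.48, and that of Tfec reversed, to -0.0372. These shifts follow from dividing by totals that were larger with 4-OHT. With each library left out in turn, the changes ranged from -1.15 to -1.09 for Mitf, -1.56 to -1.46 for Tfeb, -0.21 to -0.16 for Tfe3 and 0.21 to 0.37 for Tfec. Lysosomal and autophagy genes ranged from 63 to 80 higher, the most without 4-OHT replicate A. They ranged from 10 to 15 lower, the fewest without vehicle replicate A. All genes ranged from 3601 to 3940 higher and from 3378 to 3870 lower. The count test on recovered reads, edgeR's quasi-likelihood test, called 3997 genes higher and 3734 lower. Under the other settings, namely both pseudocounts, no filter, edgeR with and without vehicle replicate B, and DESeq2, these counts stayed within 1.5 times and the members' changes within 1 SD.

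Whether the replicate letters pair the samples is not settled. Deviations from the group means correlated across genes at 0.11, 0.04 and 0.12 for letters A, B and C. Between different letters the correlations ran from -0.12 to 0.01, so each library correlated best with its own letter, though weakly. With a replicate block 4004 genes were higher and 3968 lower, and 74 and 19 in the lysosomal and autophagy lists. Depth limits Tfeb most, with 75 to 78 reads in each treated library. Levels per kb depend on the length chosen, and the second length was added after the data were seen.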
